A study of Rattus norvegicus with 100 samples.

Results

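Voltage-gated and chloride ion channels were read in the uterus and pituitary gland of immature female rats exposed to ethinylestradiol (EE), a synthetic estrogen. The channel genes were taken by symbol: Kcn (potassium channels and their partners), Scn followed by a digit (voltage-gated sodium channels), Cacn (voltage-gated calcium channels) and Clcn (chloride channels and exchangers). A probe set, the group of oligonucleotides that reports a transcript on an Affymetrix array, was kept when it belonged to a single gene and had a value on at least 35 of the 70 uterus arrays or 15 of the 30 pituitary arrays. Of 12783 single-gene probe sets on the array, 164 carried such a symbol, for 116 genes, and 58 of these, for 47 genes, were kept. In uterus 42 probe sets of 37 genes were kept, in pituitary 48 of 40 genes, and 32 of 29 genes in both. The rule used the symbol and the number of arrays with a value, not a difference between EE and control. EE and control arrays were counted together, so blanks that depend on EE could decide whether a probe set was kept.

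The arrays came from an OECD uterotrophic assay, a regulatory test in which growth of the immature uterus reports estrogenic activity. EE-treated and control rats were sampled side by side, with 5 uterus arrays a group at 2, 4, 8, 24, 28, 48 and 72 h and 3 pituitary arrays a group at 4, 8, 24, 48 and 72 h. The labels give neither the dose, route, number of doses or vehicle of EE, nor the strain or age in days, nor whether each array was 1 animal, so p-values measure the spread between these arrays, which may be technical. In uterus all 9 smooth muscle markers, among them Acta2 and Myh11, had values on every array. In pituitary none of the 10 endocrine markers, among them Prl and Gh1, was blank throughout. Of these 10, 9 had enough values to be tested at every pituitary time, and Pomc had too few at each.

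Ion channels set the resting potential and the firing of excitable cells. In myometrium, the muscle of the uterus, calcium entry through L-type channels starts a contraction, and potassium channels such as the large-conductance calcium-activated (BK) channel and the ATP-sensitive channel oppose it. Channel pores work with accessory subunits that alter their gating and their transport to the membrane. Pituitary endocrine cells are excitable as well, and their firing drives hormone release.

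Values are linear intensities as deposited. Uterus arrays had values for 9338 to 10677 probe sets with a median of 94.6 to 108, and pituitary arrays for 9318 to 10135 with a median of 103 to 110. Differences were taken on log2(value + 30.4), where the offset is the 10th percentile of all values, and this understates fold changes of low probe sets. A probe set passed at a Benjamini-Hochberg adjusted p under 0.05 by limma, adjusted over all single-gene probe sets tested. Control probe sets at the 3′ and 5′ ends of Actb differed, a sign of RNA integrity, by 0.07 to 0.30 (log2) on the EE uterus arrays at 8 h and 0.36 to 0.67 on their controls. The groups were also apart at 28 h, with 0.08 to 0.26 under EE and 0.33 to 0.52 in controls, and at 48 h, with 0.09 to 0.44 and 0.46 to 0.90, and they overlapped at the other uterus times. The part of this in the results was not tested. In bulk tissue, fewer cells of a type and less RNA per cell cannot be told apart. Levels of different probe sets were not compared.

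In uterus, channel probe sets that passed were mostly lower under EE through 28 h, and rises came mainly at 48 and 72 h. At 2 h 2 of 41 channel probe sets tested passed, both lower, where 5.98% of all probe sets passed, 3.72% higher and 2.26% lower. At 4 h 14 of 36 passed, 2 higher and 12 lower, against a background of 56.6%, split into 23.3% higher and 33.2% lower. At 8 h 15 of 38 passed, 1 higher and 14 lower, against 62.8%, or 28.1% and 34.7%. At 24 h 12 of 37 passed, 2 higher and 10 lower, against 57.9%, or 24.3% and 33.6%. At 28 h 16 of 38 passed, 1 higher and 15 lower, against 61.6%, or 27.9% and 33.7%. At 48 h 15 of 36 passed, 6 higher and 9 lower, against 56.1%, or 23.9% and 32.2%. At 72 h 16 of 34 passed, 7 higher and 9 lower, against 59.2%, or 23.8% and 35.4%.

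From 4 h on, 32.4% to 47.1% of the channel probe sets tested passed, below the background at each time. At 8 h 2.63% of channel probe sets and 28.1% of all passed as higher, and 36.8% and 34.7% as lower. By 72 h 20.6% of channel probe sets and 23.8% of all passed as higher. These shares were not tested against each other, and the channel probe sets were mostly low. Of those kept, only Kcnd3, Kcnj8, Kcnh2 and a Cacna1c probe set had uterus medians above 100.4, the median of all uterus values. Probe sets blank on all EE arrays, such as those of Cacna1a, Kcnmb4 and Kcnip2 at 8 h, were not tested and are not counted. The part of level and blanks in the shares was not tested. The split depended on scaling: with quantile normalization it was 4 higher and 7 lower at 4 h, 3 and 12 at 8 h and 4 and 13 at 28 h, and with centred arrays 3 and 12 at 8 h and 9 and 6 at 72 h. Over the 7 times, 25 probe sets of 23 genes passed at 1 time or more, 17 only as lower, 4 only as higher and 4 in both directions. The other 17 never passed, among them those of Clcn5, Clcn7, Kcne3, Kcnj4, Kcnj5, Kcnj11, Kcnc4 and Scn10a. Counts over the 7 times were not made for all probe sets, so these have no background share and do not set channels apart.

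**Figure D1:**
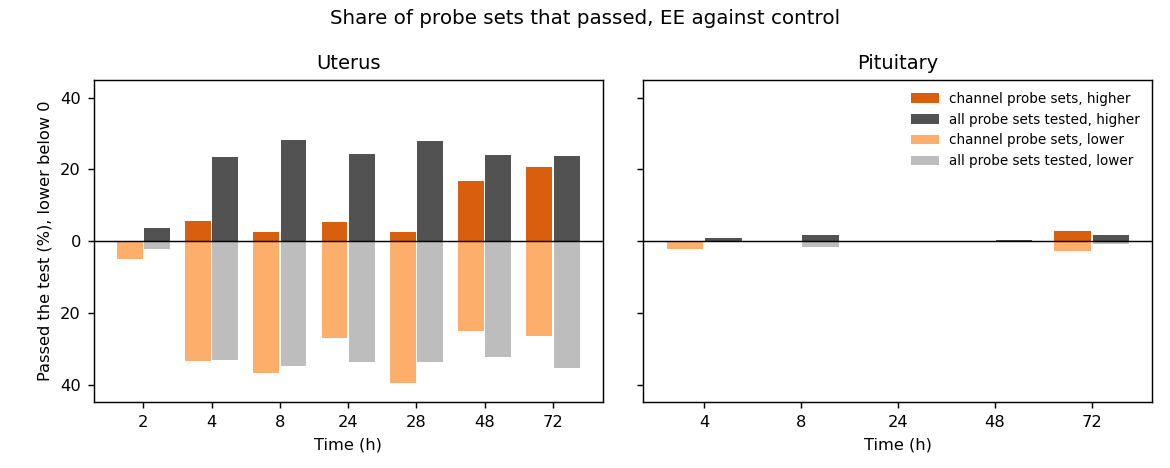
Share of channel probe sets (orange) and of all single-gene probe sets tested (grey) that passed at each time in hours, uterus on the left and pituitary on the right, with higher under EE drawn upward and lower downward, in percent. In uterus at 8 h 2.63% of channel probe sets were higher, beside 28.1% of all.

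**Figure D2:**
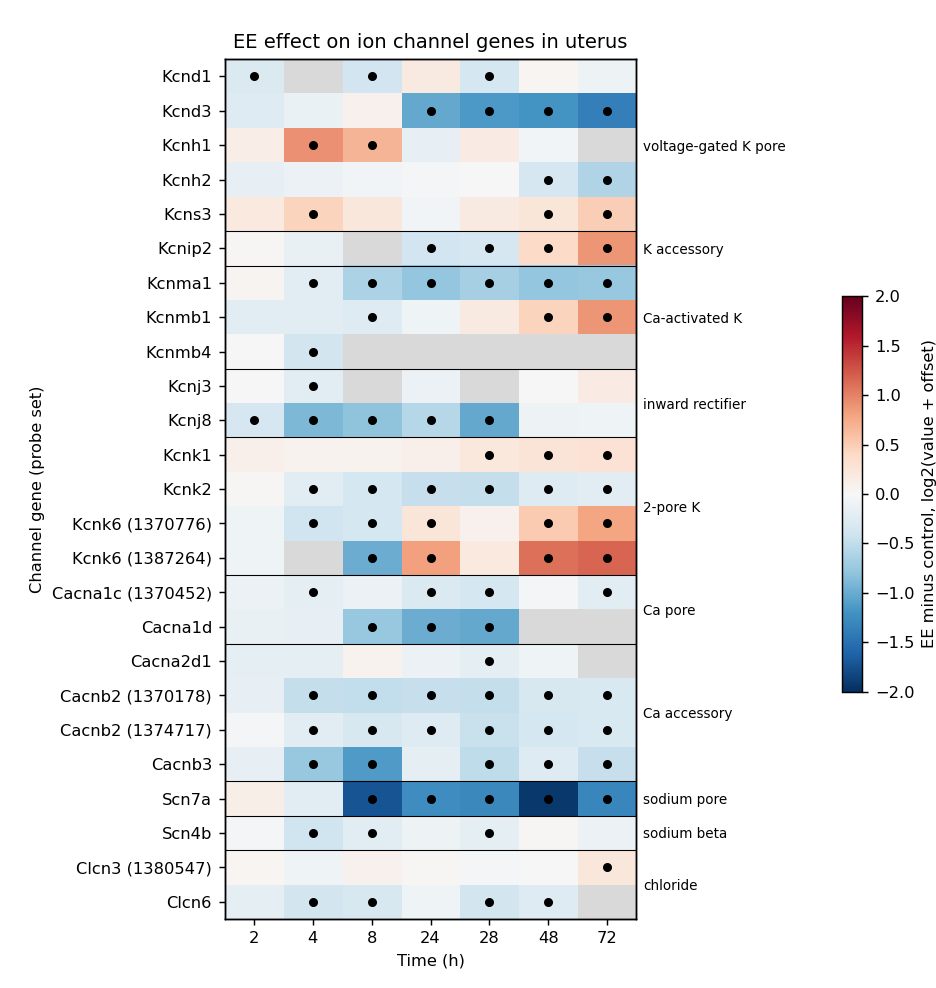
EE minus control on log2(value + offset) in uterus for the 25 channel probe sets that passed at 1 time or more, by time in hours and grouped by kind of channel. Black dots mark adjusted p under 0.05 and grey cells were not tested for lack of values. Scn7a and Kcnd3 were lower at the later times, and Kcnk6 was lower at 8 h and higher at 48 and 72 h.

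Among the channel pores of the calcium-activated class, Kcnma1, the pore of the BK channel, was lower under EE from 4 h to 72 h. At 24 h the control arrays read 83.5, 118, 123, 78.6 and 86.3, and the EE arrays 42.9, 47.3, 48.5, 41.9 and 38. Every EE array lay below every control array. The difference was -0.78 ± 0.09 (SE, log2) with adjusted p = 1.49e-10 by limma, and it was -0.78 at 48 h and -0.76 at 72 h. At 2 h the difference was 0.06, and it did not pass.

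Kcnmb1, the BK beta subunit of smooth muscle, which raises the calcium sensitivity of the channel, moved the other way late. At 72 h 4 control arrays read 74.7, 74.5, 91.6 and 98.9, with the other array blank, and the EE arrays read 154, 183, 181, 230 and 161. The groups did not overlap, and the difference was 0.88 ± 0.10 (SE, log2; adjusted p = 3.57e-11 by limma). Kcnmb1 had been lower at 8 h, by -0.25, and was higher at 48 h, by 0.44. Pore and beta subunit transcripts thus passed in opposite directions at 48 and 72 h. Another beta subunit, Kcnmb4, best known from neurons, passed once, at 4 h with -0.36, and at 8 h was blank on all EE arrays while the 5 controls read 32.9 to 45.3.

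Of the 9 smooth muscle markers, 6 were higher and 1 lower at 72 h, and their summed level was 14218 to 17692 on the EE arrays and 10905 to 14551 on controls. The epithelial list had 7 of 9 higher and 0 lower, with sums of 4663 to 6934 under EE and 1390 to 1829 in controls. No marker of either list was blank on all uterus arrays. Their part in the late rises of Kcnmb1, Kcnk6 and Kcnip2 was not tested.

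Kcnj8 encodes the Kir6.1 pore of the vascular and smooth muscle ATP-sensitive potassium channel, and with Kcnd1 it was 1 of 2 channel genes that passed at 2 h. There it was lower by -0.34 ± 0.08 (SE, log2; adjusted p = 0.00382 by limma). At 4 h the controls read 113, 119, 112, 117 and 139 and the EE arrays 50.8, 57.1, 44, 41.1 and 60.1. The difference of -0.89 was followed by -0.81 at 8 h and -0.57 at 24 h, all passed. At 28 h the controls read 145, 145, 136, 135 and 174 and the EE arrays 68.2, 58.9, 50.7, 63 and 45.7. Neither time had any overlap, and the 28 h difference was -1.02 ± 0.08 (SE, log2; adjusted p = 6.14e-17 by limma). By 48 and 72 h the differences were -0.11 and -0.09, and neither passed.

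Abcc9, the sulfonylurea receptor that assembles with Kir6.1, was no member but stood on a list of ion and calcium handling genes. It was lower at every uterus time, by -0.31 at 2 h, -1.28 at 24 h and -0.99 at 72 h. At 72 h, then, the receptor was lower while the Kcnj8 pore did not pass. Endothelial markers were lower for 4 of 4 tested at 24 h, where their summed level was 334 to 391 under EE and 480 to 676 in controls. At 4 h 3 of the 4 were lower, Tie1 by -0.60, Pecam1 by -0.35 and Emcn by -0.27, and Kdr was higher by 0.52, with sums of 512 to 587 under EE and 547 to 583 in controls. At 72 h, where Kcnj8 did not pass, 3 of 4 were lower, with sums of 252 to 330 and 510 to 616. Their part in the fall of Kcnj8 was not tested. Kcnj3, a G-protein-activated inward rectifier, passed only at 4 h, with -0.22.

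The calcium channel pores and their beta subunits were lower wherever they passed. Cacna1d, an L-type pore, had control values of 74.7, 87.4, 76.6, 75.1 and 85.4 at 24 h and EE values of 23.4, 29.2, 25.9, 24.2 and 21.4. All 5 EE arrays were far below the lowest control. The difference was -1.0 ± 0.09 (SE, log2; adjusted p = 1.29e-13 by limma), with -0.75 at 8 h and -1.02 at 28 h. At 72 h all 5 EE arrays were blank and the controls read 63.1 to 81.6, so no fold was formed. Cacna1c, the main L-type pore of smooth muscle, moved less. One of its probe sets gave -0.20 at 4 h, -0.29 at 24 h, -0.35 at 28 h and -0.20 at 72 h. With that probe set the difference at 48 h was -0.03, and it did not pass. The other Cacna1c probe set was tested at 7 times and never passed, with 2 positive and 5 negative differences.

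Cacnb3, a cytoplasmic beta subunit that carries calcium channel pores to the membrane, was the channel probe set with the smallest adjusted p in uterus. At 8 h the controls read 117, 112, 104, 87.5 and 88.1 and the EE arrays 24.3, 37.6, 34.2, 28.6 and 26. The groups lay wide apart, and the difference was -1.13 ± 0.09 (SE, log2; adjusted p = 4.34e-18 by limma). It had been -0.76 at 4 h. At 24 h it was -0.17 and did not pass, with EE arrays of 82.8 to 106 inside or just under the control range of 91.4 to 119, and at 28 h it was -0.51 and passed again. The related Cacnb2 was read by 2 probe sets, and both were lower at every time from 4 to 72 h, one by -0.30 to -0.50 and the other by -0.21 to -0.44.

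**Figure D3:**
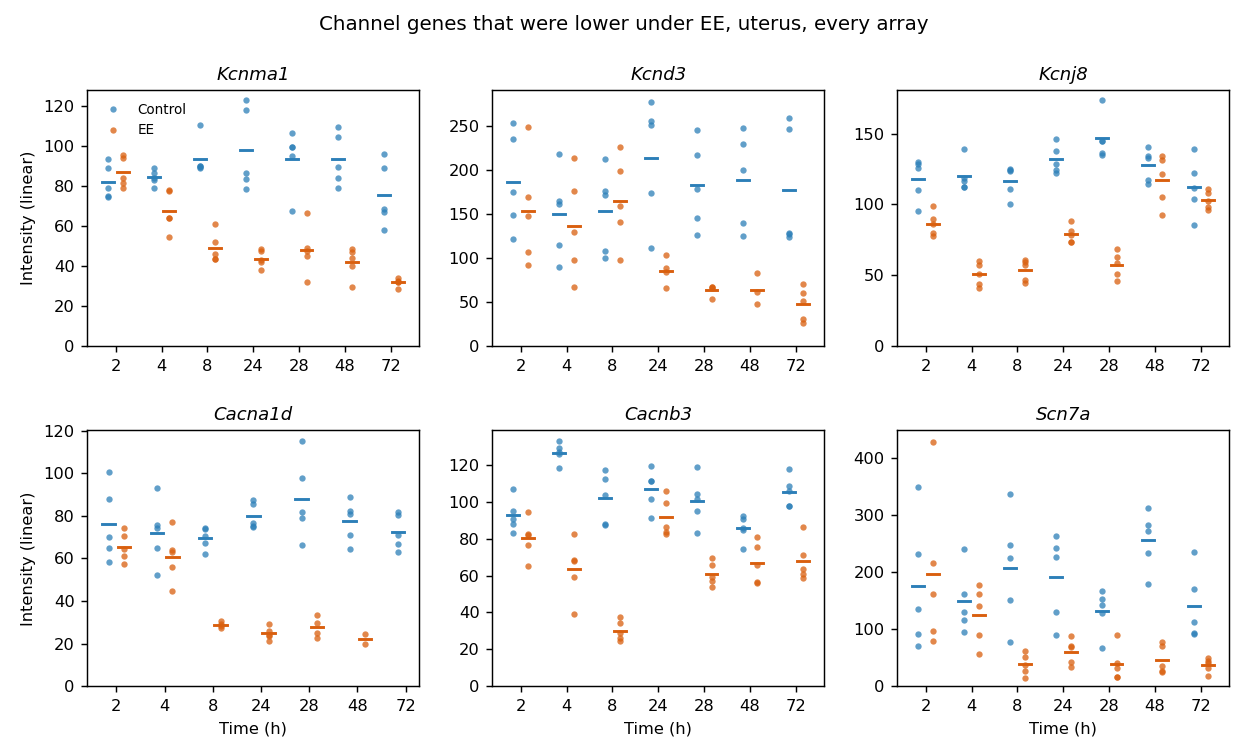
Intensity on every uterus array (points) with the group mean (line) for 6 channel genes that were lower under EE, by time in hours, control in blue and EE in orange. Kcnj8 fell at 2 to 28 h and its groups overlapped at 48 and 72 h, while Kcnma1 stayed lower to 72 h.

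Promoter sequence was read for the early fallers Cacnb3 and Kcnj8 and for Kcnmb1, which rose late, to set their proximal DNA beside these courses. The runs are the 250 bases upstream of the RefSeq start in GRCr8, 5′ to 3′ on the gene's strand, and capitals mark GGGCGG, the core of the Sp1 motif, on either strand.
Cacnb3 (chr7:131666301-131666550, + strand): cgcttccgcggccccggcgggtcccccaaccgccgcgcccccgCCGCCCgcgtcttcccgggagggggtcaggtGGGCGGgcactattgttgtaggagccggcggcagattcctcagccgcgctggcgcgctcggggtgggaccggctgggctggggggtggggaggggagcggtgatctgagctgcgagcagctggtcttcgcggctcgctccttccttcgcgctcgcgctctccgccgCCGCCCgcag
Kcnj8 (chr4:177246549-177246798, - strand): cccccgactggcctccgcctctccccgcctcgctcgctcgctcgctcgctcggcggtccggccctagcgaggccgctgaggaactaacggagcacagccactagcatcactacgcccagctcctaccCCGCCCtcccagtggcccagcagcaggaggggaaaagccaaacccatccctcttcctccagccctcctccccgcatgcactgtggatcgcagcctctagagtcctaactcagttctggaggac
Kcnmb1 (chr10:19061849-19062098, + strand): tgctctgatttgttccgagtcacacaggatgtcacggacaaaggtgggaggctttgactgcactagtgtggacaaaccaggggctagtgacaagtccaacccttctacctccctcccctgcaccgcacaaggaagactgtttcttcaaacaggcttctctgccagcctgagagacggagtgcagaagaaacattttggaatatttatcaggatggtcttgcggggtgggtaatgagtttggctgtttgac

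Cacnb3 held 3 matches, Kcnj8 held 1 and Kcnmb1 held 0. Windows of 300 bases, with 50 downstream of the start, were found for 36 of the 47 channel genes. GGGCGG was in 22 of the 36, or 61.1%, and in 34.9% of all 27457 windows. The latter were not limited to genes with values on these arrays. The window of Kcnh1, which was higher early, held 2 matches. Those of Kcnma1, Cacna1d, Scn7a and Kcnd3, which were lower, held 5, 10, 1 and 1. Whether matches go with the direction of change was not tested. The palindromic estrogen response element, GGTCA and TGACC with 3 bases of any kind between them, was in 0 of the 36 and in 0.0255% of all windows, and the AP-1 motif TGANTCA was in 1 of the 36, Scn3a, and in 7.33% of all. Both strands were searched, overlapping copies of GGGCGG were counted separately, and the printed runs held no other of these motifs for it to overlap. A match is a description of letters, not of a bound site.

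Voltage-gated potassium pores differed in direction and in the times at which they passed. Kcnh1, an ether-a-go-go channel known for its link to the cell cycle, was the only channel probe set that rose at 8 h. At 4 h the controls read 43.1, 40.4, 38, 31.5 and 34.2 and the EE arrays 121, 94.8, 84, 85.5 and 102. The lowest EE array was well above the highest control, and the difference was 0.91 ± 0.09 (SE, log2; adjusted p = 1.47e-13 by limma). At 8 h it was 0.67, and at 24, 28 and 48 h it was -0.16, 0.16 and -0.05 without passing. Kcns3, a silent subunit that modifies other potassium channels, was higher at 4 h by 0.45, at 48 h by 0.24 and at 72 h by 0.50, where the EE arrays read 41.3 to 58.7 and the controls 24.3 to 29.

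Kcnd3, a pore of the rapidly inactivating A-type current, did not pass at 2, 4 or 8 h and was lower at all later times. At 72 h the controls read 124, 128, 127, 247 and 259, so they fell into a low and a high set, and the EE arrays read 51.6, 60.1, 31.3, 71 and 26.6. All EE arrays lay below the lower control set. The difference grew from -1.03 at 24 h to -1.37 ± 0.23 (SE, log2; adjusted p = 1.16e-06 by limma) at 72 h, although at 24, 28 and 48 h 4, 4 and 3 EE arrays had a value and the fit left the blanks out. Dpp6, on the ion handling list, encodes a membrane partner of these A-type pores, and it was lower by -0.99 at 8 h and -1.57 at 72 h.

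Kcnip2, a calcium-binding partner of the same pores, changed direction. It was lower at 24 h by -0.39 and at 28 h by -0.34, and higher at 48 h by 0.38. At 72 h the controls read 32.5, 33.8, 28.8, 36.5 and 35.6 and the EE arrays 90.3, 101, 87.2, 70.7 and 88.1. The groups were clearly separate, with a difference of 0.88 ± 0.10 (SE, log2; adjusted p = 1.97e-10 by limma). At 8 h all 5 EE arrays were blank and the controls read 25.2 to 39. Kcnd1, a further A-type pore, was lower at 2 h by -0.30, at 8 h by -0.38 and at 28 h by -0.35, and at 4 h it was blank on all EE arrays with controls at 51.6 to 72.5.

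Kcnh2, the ERG channel, which repolarises muscle and heart cells, did not pass until 48 h, when it was lower by -0.34. At 72 h the controls read 124, 117, 154, 135 and 110 and the EE arrays 72.4, 81, 75.5, 73.8 and 64.7. No arrays of the groups overlapped, and the difference was -0.60 ± 0.10 (SE, log2; adjusted p = 3.15e-07 by limma).

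The 2-pore potassium channels carry background currents, and 3 of their genes passed. Kcnk6 was read by 2 probe sets that changed direction together. With one of them, the 8 h controls read 102, 85.6, 103, 120 and 154 and 4 EE arrays 35.5, 60.7, 45.6 and 25.2, with the other EE array blank, a difference of -0.99 ± 0.16 (SE, log2; adjusted p = 2.91e-07 by limma). At 24 h it was higher by 0.83. At 72 h the controls read 56.3, 62.7, 69.6, 82.4 and 102 and the EE arrays 160, 226, 235, 191 and 202, a difference of 1.16 ± 0.15 (adjusted p = 2.48e-09). The groups were apart at both times, below the controls at 8 h and above them at 72 h. The other probe set gave -0.34 at 8 h, 0.24 at 24 h and 0.79 at 72 h, and all 3 passed.

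Kcnk6 had the smallest adjusted p of all channel probe sets in the test of whether the EE effect differed between times, 4.78e-15 by limma's moderated F. Of 27 channel probe sets with values in every group, 12 passed that test, or 44.4%, against 80.4% of all. Kcnk1 was higher at 28, 48 and 72 h, by 0.22, 0.26 and 0.29. Kcnk2 (TREK-1), which responds to stretch, was lower at every time from 4 to 72 h, by -0.21 to -0.48, but its group means at those times were 5.36 to 10.8 under EE and 17 to 20.9 in controls, below the offset. Kcnk3 (TASK-1) did not pass at any time tested, and at 48 h it was blank on all EE arrays while the controls read 24.2 to 49.7.

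**Figure D4:**
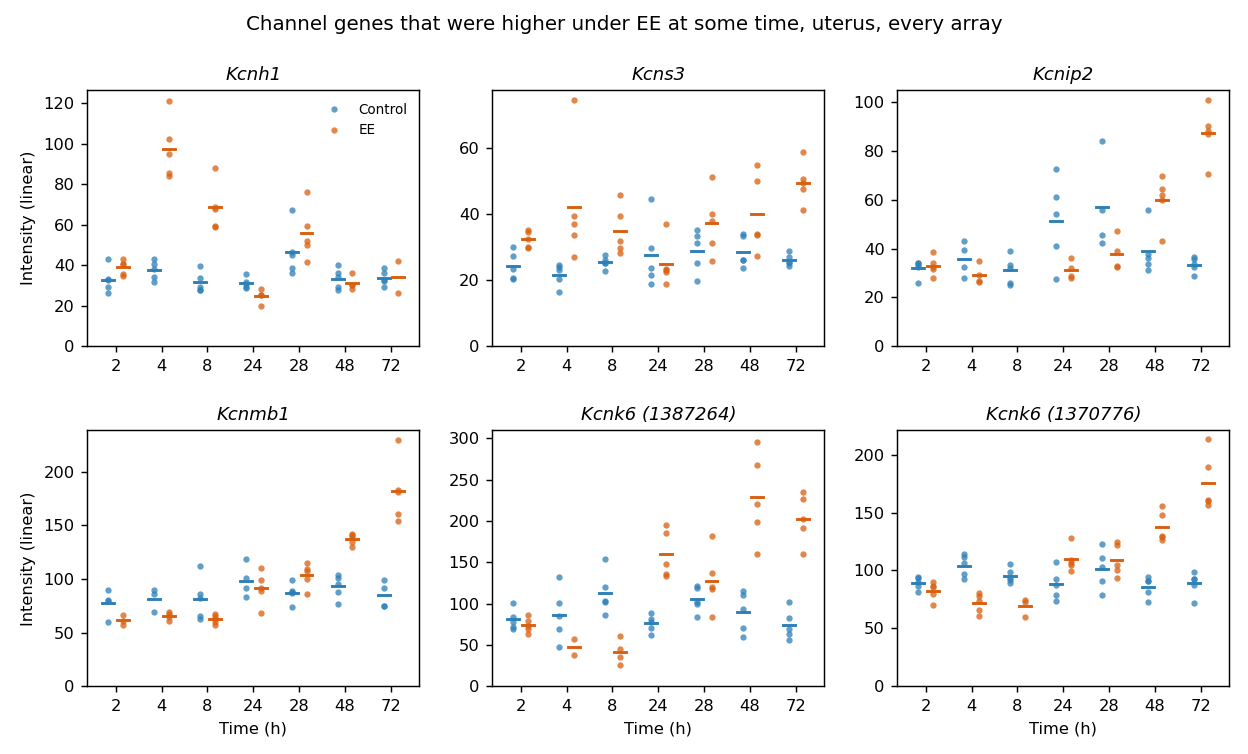
Intensity on every uterus array (points) with the group mean (line) for 5 channel genes that were higher under EE at some time, by time in hours, control in blue and EE in orange, with Kcnk6 shown for both of its probe sets. Kcnh1 was high at 4 and 8 h, and Kcnip2, Kcnmb1 and Kcnk6 were high at 72 h.

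Among sodium channels, Scn7a had the largest fall of any channel gene in uterus. It encodes Nax, a sodium-sensing relative of the voltage-gated channels known from glia and peripheral nerve. At 48 h the controls read 311, 233, 283, 272 and 179 and the EE arrays 77.6, 26.2, 34.8, 70.4 and 24.3. Every EE array was below every control, and the difference was -1.93 ± 0.32 (SE, log2; adjusted p = 4.89e-07 by limma). It was -1.72 at 8 h, -1.24 at 24 h, -1.28 at 28 h and -1.30 at 72 h, and 0.12 and -0.22 at 2 and 4 h, where it did not pass.

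Of 4 nerve and glia markers tested at 8 h, 3 were lower and 1 higher, and the summed level of the 2 markers with values on all uterus arrays was 98 to 136 under EE and 161 to 351 in controls. At 24 h 0 of 5 passed, with sums of 186 to 259 under EE and 135 to 254 in controls, while Scn7a was lower at both times. At 48 h 3 of 6 were lower, with sums of 201 to 305 and 183 to 317. At 28 and 72 h 1 of 3 was lower and 0 higher. Of these markers S100b was lower at 4, 8, 28, 48 and 72 h, by -0.66, -0.73, -0.29, -0.35 and -0.58. At 24 h it was -0.15 and did not pass. Gfap was higher at 4 and 8 h, by 0.89 and 0.47, and did not pass later. The part of these markers in the fall of Scn7a was not tested beyond these values. Scn4b, a beta subunit, was lower at 4 h by -0.40, at 8 h by -0.20 and at 28 h by -0.18, and Scn10a and Scn3b did not pass in uterus.

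The chloride family moved least. Clcn6, an endosomal chloride-proton exchanger, was lower at 4, 8, 28 and 48 h, by -0.37, -0.33, -0.37 and -0.26. Of the 3 Clcn3 probe sets, 1 passed at 72 h as higher, by 0.23, with overlapping groups, and the other 2 did not pass at any time. Clcn5 and Clcn7 did not pass. Clcn2, Kcnn3, Kcnq1 and Kcne1, which are studied in myometrium or epithelium, had no probe set with enough values.

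Beside the members, 51 of 70 ion and calcium handling genes on the list were on the array. More of them passed as lower than as higher through 48 h, as did more of all probe sets from 4 h on. At 8 h 11 of 35 tested were higher and 18 lower, beside 28.1% and 34.7% of all probe sets. At 48 h 10 of 38 were higher and 12 lower, beside 23.9% and 32.2%. At 72 h 13 of 38 were higher and 9 lower, beside 23.8% and 35.4%. Slc8a1, the sodium-calcium exchanger, was lower by -1.33 ± 0.07 (SE, log2; adjusted p = 1.77e-24 by limma) at 8 h and by -0.42 at 72 h. Gja1, the gap junction protein that couples myometrial cells, was higher by 1.21 at 8 h and 1.34 at 72 h. Atp1b3, a sodium pump subunit, was higher by 0.92 at 72 h, and Fxyd1, a sodium pump regulator, was lower by -1.01 at 8 h.

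In pituitary 3 channel probe sets passed over the 5 times. At 4 h 1 of 44 passed, against 1.32% of all, and at 72 h 2 of 37 passed, against 2.45%. At 8, 24 and 48 h 0 of 43, 45 and 46 passed by limma, against 3.26%, 0.101% and 0.303% of all, with 9, 1 and 3 at an unadjusted p under 0.05. The test between times passed for 1 of 33 channel probe sets, that of Scn9a, against 1.04% of all.

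Scn9a, a sodium pore of endocrine cells and sensory neurons, was lower at 4 h. Its controls read 122, 115 and 123 and its EE arrays 86.0, 81.5 and 80.5, with no overlap, and the difference was -0.41 ± 0.09 (SE, log2; adjusted p = 0.00807 by limma). At 8 and 48 h the differences were 0.22 and 0.28 without passing. With only the 2 groups at 4 h in the fit, its adjusted p was 0.0873.

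Scn3b, a sodium channel beta subunit, was higher at 72 h. The controls read 133, 120 and 131 and the EE arrays 189, 234 and 239, again without overlap, and the difference was 0.66 ± 0.15 (SE, log2; adjusted p = 0.0158 by limma). Leaving out either of 2 control or either of 2 EE arrays raised the adjusted p to between 0.0516 and 0.0810. Kcnd2, an A-type pore, was lower at 72 h by -0.50 ± 0.11 (adjusted p = 0.0105), with EE arrays at 45.9, 43.4 and 42.1 and controls at 67.9, 71 and 85.9. Without control array 76, 0 channel probe sets passed at 72 h, so the call of Kcnd2 was lost as well. Its other probe set had too few values at 72 h to be tested. Kcnh1 was blank on all 3 EE arrays at 72 h, with controls at 26.2 to 33.

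The EE effect was compared between the tissues in a single fit. At 4 h 7 of 27 channel probe sets passed, 2 more positive and 5 more negative in uterus, against 32.7% of all, 15% and 17.7% in these directions. At 8 h 8 of 25 passed against 46.5%, at 24 h 8 of 27 against 39.3%, at 48 h 5 of 26 against 35.2% and at 72 h 8 of 20 against 38.2%. With centred arrays the counts were 4 at 4 h, 2 in each direction, and 5 at 24 h, and with quantile normalization 3 at 4 h, 2 more positive and 1 more negative, and 5 at 24 h. Arrays of the 2 tissues share numbers in their titles, and with differences taken within shared numbers 5 passed at 8 h instead of 8. Kcnh1 at 4 h had the smallest adjusted p, with an effect of 0.91 in uterus and -0.07 in pituitary and a difference of 0.98 ± 0.14 (SE, log2; adjusted p = 3.65e-08 by limma). Kcnma1 at 48 h had -0.78 and 0.09, with a difference of -0.86, and Cacna1d at 24 h had -1.0 and -0.08, with a difference of -0.92. Cacnb3 at 8 h was negative in both, -1.13 and -0.34, the latter without passing.

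Control levels of the channels also differed between the tissues, over the 5 times they share. Of 25 channel probe sets tested 22 passed, 5 higher and 17 lower in uterus, where 86.4% of all passed, 38% higher and 48.3% lower. With quantile normalization 8 were higher and 16 lower. The 3′ minus 5′ difference of Actb was 1.23 to 1.86 on all pituitary arrays and 0.07 to 1.09 on all uterus arrays, and its part in the tissue differences was not tested. Clcn3, an endosomal and vesicular exchanger, read 421 to 641 in pituitary and 36.1 to 72.7 in uterus with one of its probe sets, a difference of -2.75 ± 0.05 (SE, log2; adjusted p = 3.85e-67 by limma), and its other 2 probe sets gave -2.70 and -2.13. Kcnk2, Scn7a and Scn3b were lower in uterus by -2.17, -2.01 and -1.56. Kcnma1 was lower by -0.68, with 58.1 to 123 in uterus and 126 to 189 in pituitary. Cacna1c was higher in uterus by 0.66, with 90.3 to 131 against 41.7 to 73, and Kcnh2 by 0.62, Cacnb3 by 0.39 and Kcns3 by 0.34.

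**Figure D5:**
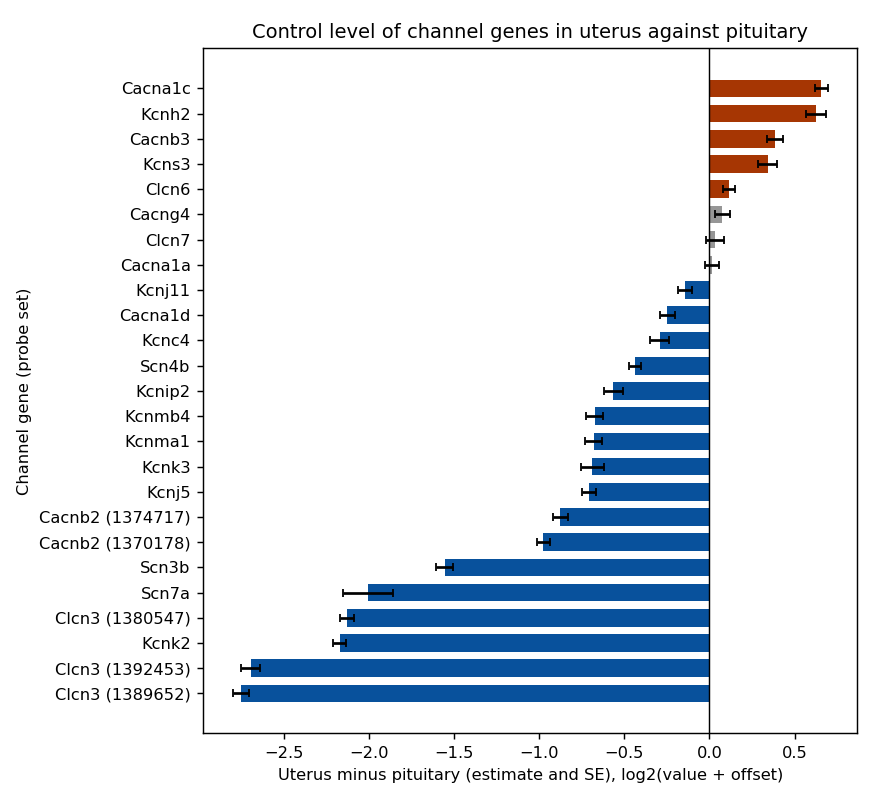
Uterus minus pituitary on log2(value + offset) over control arrays at the 5 shared times for the 25 channel probe sets tested, as the estimate with its SE. Orange bars passed as higher in uterus, blue as lower and grey did not pass. Clcn3 stood at -2.75, -2.70 and -2.13 and Cacna1c at 0.66.

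The members nearest the threshold of values were few. In uterus Cacna1a, a neuronal calcium pore, was just inside, and at 8 h it was blank on all EE arrays with controls at 22.5 to 31.8, while Kcnk15, Cacna1g and a Kcnj6 probe set were just outside. In pituitary Kcnj8, Kcnip4 and Kcnd2 had a probe set just inside, and Kcnj11 and Kcnj15 just outside. Of the 164, 66 had no value on any array and 40 had too few in both tissues.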

How the data were processed

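Total RNA from 70 uterus and 30 pituitary arrays was hybridised to Affymetrix RAE230A arrays, per the labels. As deposited, each value is the linear intensity of a probe set. How values were summarised and scaled, and why 37.2% of cells are blank, is not given in the sources used here. GEO's platform annotation gave the genes: 12783 of 15923 probe sets had 1 gene, 312 several, 2771 none listed and 57 were controls.

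Values were changed to log2(value + 30.4) and group means were fitted per tissue over 14 uterus or 10 pituitary groups with limma 3.58.1 (R 4.3.3), leaving blanks out. At least 3 of 5 uterus or 2 of 3 pituitary values were needed in both groups. Tests were two-sided, with Benjamini-Hochberg adjustment over all single-gene probe sets tested. Tissues were compared in a fit of all 24 groups. The number of arrays limits the precision. Scripts were tested on simulated data.

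The members and lists were chosen with earlier results of these data known. Values on every array are given for the largest non-overlapping changes whose higher mean was above the tissue median (up to 6 rises and 6 falls in uterus, 4 and 4 in pituitary), for a set of genes always named, and for the 6 smallest adjusted p of the tissue differences. Values of Kcnj8 at 4 h, Kcnd2 in pituitary at 72 h, Kcnk1 and Kcns3, and the list genes, stand outside that rule or in part. Alternatives were another offset, centring, quantile normalization, a variance trend, complete values, 1 probe set a gene, only the groups of a time, a replicate block and leaving out each array. Promoters are RefSeq's for GRCr8.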

Additional observations from a re-analysis of the deposited data

Results flagged for a closer look

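The EE effect differed between uterus and pituitary by a test of the difference for 6 channel probe sets named by smallest adjusted p, all with limma. Uterus minus pituitary, in log2, it was 0.98 for Kcnh1 at 4 h and 0.90 for Kcnip2 at 72 h. It was -0.92 for Cacna1d at 24 h, -0.86 for Kcnma1 at 48 h, -0.79 for Cacnb3 at 8 h and -0.60 for Cacnb2 at 8 h.

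Of 34 sets of 4 or 5 uterus arrays tested, each a channel probe set in a treatment group at a time, 2 had an array far from the others, both in uterus controls at 28 h. For Cacna1c 1 array read 95.5 and the others 118 to 125. For Kcnj8 a different array read 174 and the others 135 to 145. Chance alone sets 1 array apart in about 1 of 20 such sets.

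Kcnk12, a 2-pore potassium channel with too few values to be a member, had values of 38 to 45, with a median of 43.2, on all 3 EE pituitary arrays at 48 h and on 0 of 3 controls. The reason for blank cells is unknown, so no fold was formed.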

How the results depend on the processing

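Of 331 recomputed values of 17 single results, 326 kept direction and side of the threshold, 5 kept direction without passing and 0 reversed. The 5 were pituitary results, Scn3b at 72 h without any 1 of 4 arrays and Scn9a at 4 h with only the 2 groups of that time, whose adjusted p stands with the results. Kcnd2 in pituitary was not among the 17, so its lost call is not in this tally. Counts of channel probe sets that passed moved by over 1.5 times in these cases, and the cause was not tested beyond what each alternative changes. In uterus at 2 h 1 passed, where 2 did, with quantile normalization, with only the 2 groups of that time and with a value on every array required. Requiring a value on every array left 10 in uterus at 28 h, where fewer probe sets were tested. In pituitary at 4 h 0 passed with only the 2 groups of that time. For the difference between tissues, centring left 4 at 4 h and 5 at 24 h, quantile normalization 3 and 5, and an offset of 100 left 3 at 4 h. An offset of 10, a variance trend and 1 probe set a gene moved none of the 20 counts that far.

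Leaving out each array in turn gave 1 to 3 calls in uterus at 2 h, and 11 to 15, 13 to 16, 11 to 14, 13 to 17, 13 to 15 and 15 to 16 at 4, 8, 24, 28, 48 and 72 h. In pituitary it gave 0 to 1 at 8 h and 0 to 2 at 72 h, and for the tissue difference 3 to 8 at 4 h, 6 to 9 at 8 h and 5 to 9 at 24 h. By the numbers in the titles, the uterus count at 2 h was 1 without control 4, 5 or 6 or EE 8 or 9. The pituitary count at 72 h was 0 without control 76 and 1 without control 75 or EE 82 or 83, and at 8 h it was 1 without control 30 or EE 33. The tissue difference count at 4 h was 3 without pituitary EE 23 and 4 without pituitary control 17 or EE 20 or uterus control 14 or 16 or EE 19, 20 or 21. At 24 h it was 5 without pituitary control 38 or 42 or EE 43 or 46 or uterus EE 43 or 45. Uterus and pituitary arrays share numbers in their titles. Same-numbered arrays had deviations that correlated at -0.07 to 0.16 over 27 pairs, 7 of them over 0.1. The median was 0.06, against -0.03 for other numbers, and 18 of the 27 correlated best with their own number. Each was set against all arrays of the matching group of the other tissue, so 18 of 27 is above an even share. The labels do not say whether a shared number is a shared animal, and these values cannot settle it. The main fits leave the numbers out. With the replicate block, for the tissue difference, 5 channel probe sets passed at 8 h instead of 8. EE and control share no numbers. Signal near or under the offset limits Kcnk2, Kcns3 and Kcnmb4. Among others it also limits Scn4b, Kcnip2, Kcnh1 and a probe set of Cacnb2, with uterus medians of 31.9, 35.3, 36 and 27.1.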
